A study of Saccharomyces cerevisiae with 17 samples.

Results

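Ribosome biogenesis factors are the proteins that turn the ribosomal RNA precursor into the small and the large ribosomal subunit without being part of the finished ribosome. The genes described here are the 58 Saccharomyces cerevisiae genes whose names begin with UTP, NOP or RRP followed by a number, or with NOC or NSA followed by 1 digit, out of 5449 genes measured. Each of the 58 had 1 probe set, and all 58 lay above the background of 4.56 log2, with means over the arrays between 7.32 and 11.30. All 58 symbols of this form in the RefSeq gene table were on the array.

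Expression had been measured on 17 Affymetrix Yeast Genome 2.0 arrays from 3 strains of the laboratory haploid BY4742, a yeast of mating type alpha. The groups were the FLO1 overexpression strain in microgravity (2 arrays) and on the ground (3), the strain labelled BY4742::FLO8 in microgravity (3) and on the ground (3), and the BY4742 wild type (WT) in microgravity (3) and on the ground (3). All cultures started as cells in saline to which rich medium was added. They grew for 72 h at 23 °C, the flight cultures on the International Space Station from 5 days after launch, the ground cultures after the flight at the logged temperatures. The promoter that drives FLO1, how the FLO8 strain was made and whether replicates were separate cultures are not given in the sources used here, and the p-values given here cover the spread between arrays, which may be technical. The ground cultures came after the flight ones, and this difference in date cannot be told apart from the condition.

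FLO1, the flocculin gene, read 12.52 to 12.90 log2 in the FLO1 strain and 7.81 to 8.87 in WT. The FLO8 probe set read 7.58 to 8.31 in the strain labelled FLO8, below the 8.94 to 9.51 of WT, while FLO11, a flocculin gene that FLO8 activates, read 11.24 to 13.02 there and 8.11 to 9.43 in WT. The alpha-cell gene MF(ALPHA)1 read 10.56 to 13.12 and the a-cell gene MFA1 8.59 to 11.06 over the arrays. Of the genes deleted in BY4742, URA3 and LYS2 lay below background on all arrays, LEU2 read 4.71 to 5.35, and HIS3 read 9.68 to 10.69; whether those probes lie inside the deleted part was not tested. The values are log2 probe set levels, relative to the other genes of an array because the arrays had been normalized to each other. Array medians lay between 9.84 and 9.94.

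Ribosome assembly starts in the nucleolus, where RNA polymerase I makes a long precursor RNA. The UTP-A, UTP-B and UTP-C complexes, the U3 snoRNP and many further factors bind it and fold and cut it into the small subunit, while other NOP, NOC, NSA and RRP proteins build the large subunit and carry it to the nuclear pore. The RNA exosome, which several RRP genes encode, trims the ends of the RNAs and destroys the spacers. In budding yeast the transcripts of these factors are known to be made together in growing cells and to fall together under stress or starvation, along with those of ribosomal proteins but under partly separate control.

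By role, the genes fell into 18 factors of the large subunit, 14 further factors of the small subunit, 7 exosome subunits, 6 proteins of UTP-A, 4 of UTP-B, 4 of the box C/D snoRNPs, which methylate ribosomal RNA, 2 of UTP-C, 2 that act on both subunits, and NOP10 of the H/ACA snoRNPs, which make pseudouridine.

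The 58 transcripts varied together from array to array. The median of the 1653 pairwise Pearson correlations was 0.69 over the 17 arrays, and 92.0% of the pairs were above 0. After each group's own mean was taken away the median was 0.79, with 90.3% above 0, so the genes also varied together between replicate arrays of the same group. The same median over deviations from group means was 0.69 for 114 other genes of ribosome assembly, 0.84 for 128 cytosolic ribosomal proteins and 0.0063 over all genes. These are descriptions over 17 arrays that all genes share.

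**Figure D1:**
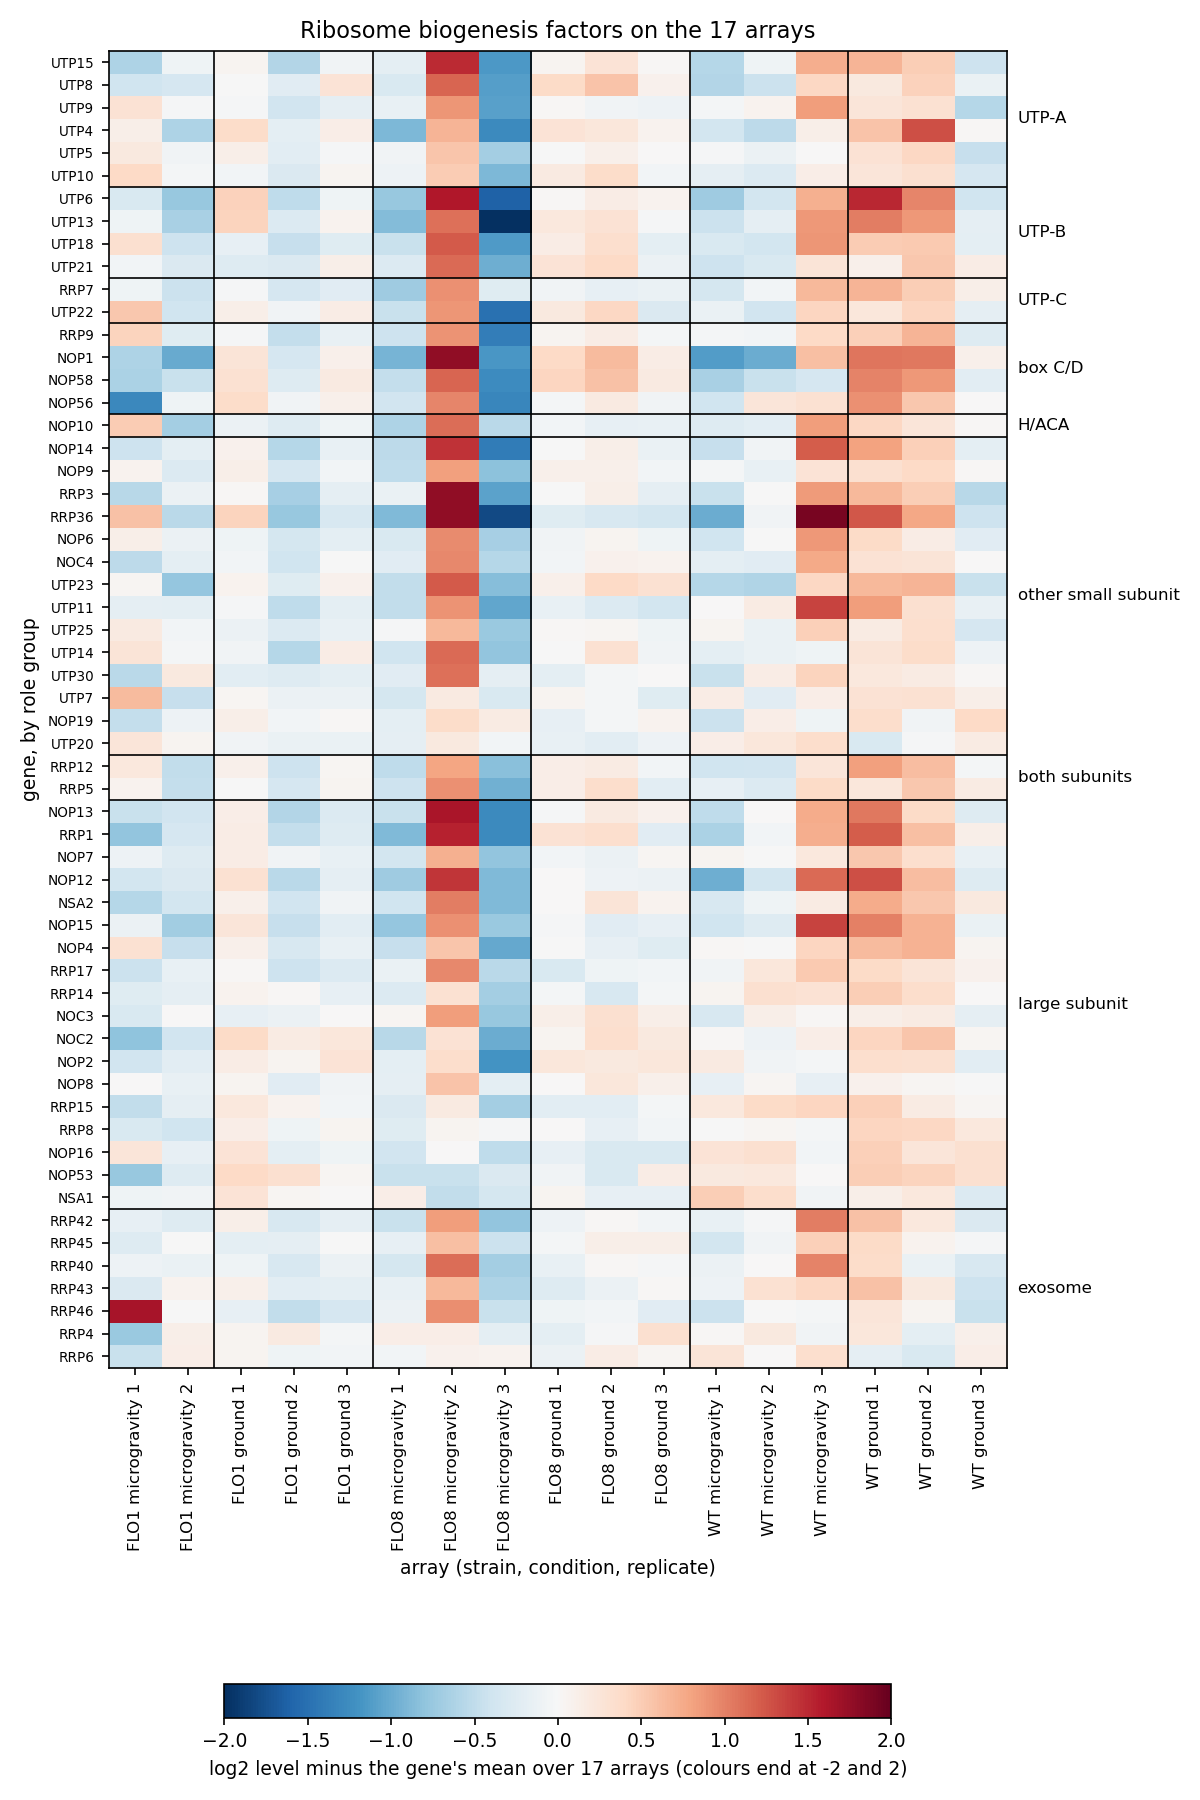
Log2 level of each of the 58 genes (rows, by role group) on each of the 17 arrays (columns), as the difference from that gene's mean over all arrays. FLO8 microgravity replicate 2 was the highest array for 38 of 58 genes and FLO8 microgravity replicate 3 the lowest for 43 of 58. The shares were 21.8% and 15.9% over all genes, and 62.3% and 68.4% over the 114 other genes of ribosome assembly. RRP4, RRP6, NOP53, NSA1 and UTP20 did not follow the others.

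The widest departures were both in flight cultures of the strain labelled FLO8. Averaged over the 58 genes, its 3 flight arrays stood at 8.67, 9.87 and 8.22 log2, against 9.06, 9.13 and 9.002 on its 3 ground arrays. Replicate 2 was thus above and replicates 1 and 3 were below every ground array. The difference between replicates 2 and 3 had a median of 1.62 log2 over the genes, was above 0 for 56 of 58 and above 1 for 46 of 58, or 79.3%, where 18.1% of all genes exceeded 1. For the 114 other genes of ribosome assembly the median of the same difference was 1.65, with 71.1% above 1, so the swing was not particular to the 58. For ribosomal proteins the median was 0.75. On replicate 2 the probe set for the 3 prime end of the small-subunit ribosomal RNA read 11.87 log2, the lowest of the arrays, and it read 12.52 on WT microgravity replicate 3 and 13.33 on FLO1 microgravity replicate 1, against 13.67 to 14.23 on the other 14. The part of this in the values was not tested.

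UTP13, a propeller protein of UTP-B, followed the others most closely, with a correlation of 0.988 between its deviations from group means and those of the mean of the other 57. UTP13 read 7.42, 9.39 and 6.12 log2 in FLO8 microgravity, against 8.50, 8.57 and 8.26 on the ground. Its flight values lay on both sides of the narrow ground range. RRP36, needed for early cuts in the precursor of the small subunit, had the largest standard deviation over the 17 arrays, 0.999 log2. RRP36 read 6.95, 9.62 and 6.03 in FLO8 microgravity, against 7.60, 7.52 and 7.48 on the ground, and 6.84, 7.78 and 9.74 in WT microgravity, against 9.09, 8.61 and 7.42 on the ground. NOP1, the fibrillarin methyltransferase of the box C/D snoRNPs, and UTP6 of UTP-B came next with 0.881 and 0.847.

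In WT the replicates also parted. The mean of the 58 genes was 8.81, 8.96 and 9.49 log2 in WT microgravity, against 9.56, 9.44 and 8.94 on the ground. Microgravity replicate 3 stood above both other flight arrays for 46 of 58 genes (median 0.55 above their mean), and ground replicate 3 stood below both other ground arrays for 52 of 58 (median difference −0.52). Among all genes 46.8% were lower on that ground array than on both others, and among ribosomal proteins 124 of 128. On microgravity replicate 3, 2136 of all 5449 genes and 120 of 128 ribosomal proteins stood above both other flight arrays. In the FLO1 strain the values were 8.91 and 8.78 in microgravity, against 9.13, 8.77 and 8.98 on the ground, with flight and ground arrays overlapping.

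**Figure D2:**
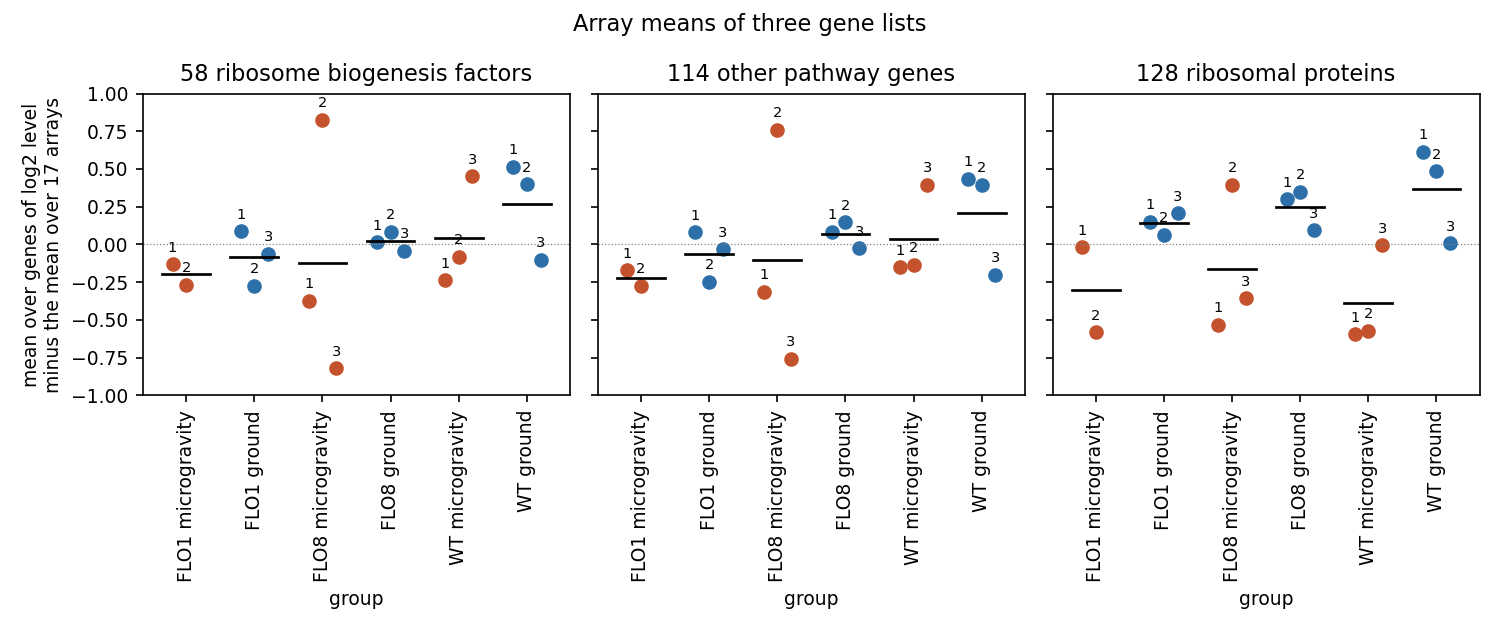
Mean over the genes of 3 lists of the log2 level minus each gene's mean over 17 arrays, for each array (points, numbered by replicate) and group (bar, mean); orange points are microgravity and blue points ground. For the 58 biogenesis factors the flight arrays of the FLO8 strain run from −0.82 to 0.83, while the 128 ribosomal proteins lie lower in microgravity than on the ground in each strain's mean.

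Spread between replicates was larger in flight. The median standard deviation within groups was 0.647 log2 for the flight groups and 0.239 for the ground groups, and it was larger in flight for 57 of 58 genes. The median ratio was 2.38, close to the 2.21 over all genes, 92.8% of which were also wider in flight. The exception was RRP8, a methyltransferase of the large-subunit RNA, with 0.104 in flight and 0.108 on the ground. UTP30 and NOP10 had the largest ratios, 6.71 and 6.22, with standard deviations within groups of 0.603 and 0.820 in flight and 0.0898 and 0.132 on the ground.

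**Figure D3:**
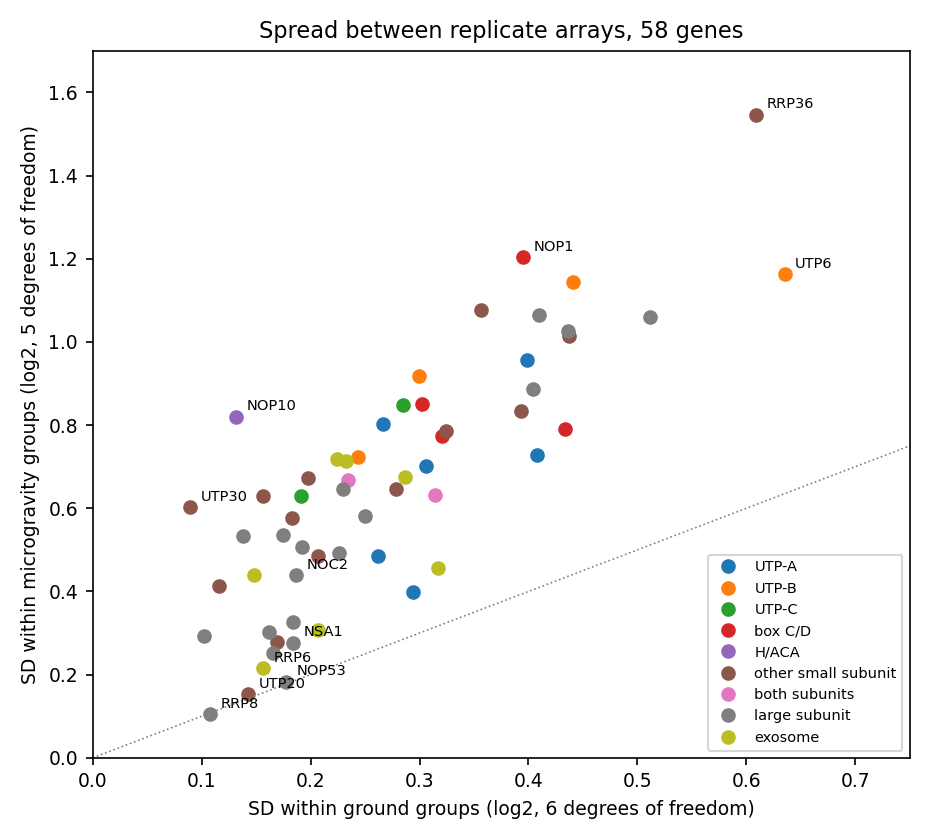
Standard deviation within flight groups (vertical axis, log2) against that within ground groups (horizontal axis, log2) for the 58 genes, coloured by role group; the dotted line marks equal spread. All but RRP8 lie above the line, and RRP36, NOP1 and UTP6 lie highest.

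A few members stood apart from the rest. RRP6, the nuclear exonuclease of the exosome, and RRP4, one of its RNA-binding cap proteins, had correlations of −0.05 and 0.04 with the other members in deviations from group means, and NOP53 and NSA1, which act on large-subunit precursors, had −0.21 and −0.27. NOP19 had 0.26 and UTP20 0.33. UTP20, NOP8 and RRP6 also had the smallest standard deviations over the arrays, 0.189, 0.194 and 0.194. RRP6 read 10.01, 10.14 and 10.13 log2 in FLO8 microgravity, against 9.95, 10.22 and 10.10 on the ground, so the 2 flight arrays that stood farthest apart for most of the genes were almost level for RRP6. The rest of the exosome did follow: RRP40, a second cap protein, read 10.86, 12.34 and 10.54 in FLO8 microgravity, against 11.07, 11.24 and 11.20 on the ground.

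Whether microgravity changed these transcripts was tested with limma within each strain and averaged over the 3 strains. Within a strain no biogenesis factor passed an adjusted p of 0.05. On average over the strains 2 of 58 fell, NOC2 and NOP53, both of the large subunit, and none rose. The share of all genes called was 0.147% in WT, 0.0367% in the FLO1 strain, 0% in the FLO8 strain and 4.31% in the average; 2% of all genes were called lower in the average. At an unadjusted p under 0.05 there were 2, 4, 1 and 8 of the 58, or 3.45%, 6.9%, 1.72% and 13.8%, below the 10%, 13.1%, 6.55% and 21.7% of all genes. The lowest p within a strain were those of NOP53 (−0.76 log2), NOC2 (−0.85) and RRP8 (−0.39) in the FLO1 strain (adjusted p 0.169 to 0.255), of NOC2 (−0.62), NOP2 (−0.56) and NOP53 (−0.31) in the FLO8 strain (0.744 to 0.755), and of RRP8 (−0.35), NOP58 (−1.03) and UTP4 (−0.88) in WT (0.317 to 0.517). Arrays measure the RNA of a whole culture, so fewer cells that express a gene and less RNA per cell cannot be told apart.

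NOC2, which forms complexes that bring large-subunit precursors from the nucleolus to the nucleoplasm, read 8.12 and 8.54 log2 in FLO1 microgravity, against 9.31, 9.08 and 9.14 on the ground. It read 8.37, 9.21 and 7.93 in FLO8 microgravity, against 8.98, 9.26 and 9.11 on the ground, and 8.94, 8.81 and 9.05 in WT microgravity, against 9.35, 9.47 and 8.96 on the ground. The FLO1 groups did not overlap, and the other pairs did. Averaged over the strains NOC2 fell by 0.60 on the log2 scale, 1.51-fold lower in microgravity (SE 0.153, adjusted p = 0.0431 by limma with Benjamini-Hochberg adjustment).

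NOP53, which brings the exosome to large-subunit precursors, read 9.11 and 9.62 log2 in FLO1 microgravity, against 10.27, 10.20 and 9.91 on the ground. It read 9.42, 9.44 and 9.58 in FLO8 microgravity, against 9.80, 9.57 and 10.02 on the ground, and 10.08, 10.09 and 9.89 in WT microgravity, against 10.37, 10.32 and 10.20 on the ground. Flight and ground arrays were apart in the FLO1 strain and in WT, and FLO8 ground replicate 2 fell among the flight values of its strain. NOP53 fell by 0.45 on average (1.37-fold, SE 0.0979, adjusted p = 0.0260).

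Both calls were near the threshold. Leaving out 1 array at a time, NOC2 lost its call in 13 of 17 fits (adjusted p 0.00264 to 0.117) and NOP53 in 8 of 17 (0.00623 to 0.0666), always with the same sign. NOC2 passed without WT ground replicate 3, FLO1 microgravity replicate 2, or FLO8 microgravity replicate 2 or 3. NOP53 did not pass when any of these was left out: FLO1 microgravity replicate 1, FLO1 ground replicates 1 and 2, FLO8 ground replicates 1 and 3, WT microgravity replicate 2, and WT ground replicates 1 and 2. RNA quality moved with the condition: for 7 control genes, the 3 prime probe sets exceeded the 5 prime ones by a mean of 1.34 ± 0.11 log2 in FLO1 microgravity (SD, n = 2) and 1.08 ± 0.07 on the ground (n = 3), 1.19 ± 0.06 in FLO8 microgravity and 1.14 ± 0.06 on the ground, and 1.18 ± 0.02 in WT microgravity and 1.09 ± 0.05 on the ground (n = 3 each). With that difference as a covariate NOC2 was at −0.34 (adjusted p = 0.729) and NOP53 at −0.28 (adjusted p = 0.660), and no gene of the table passed.

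**Figure D4:**
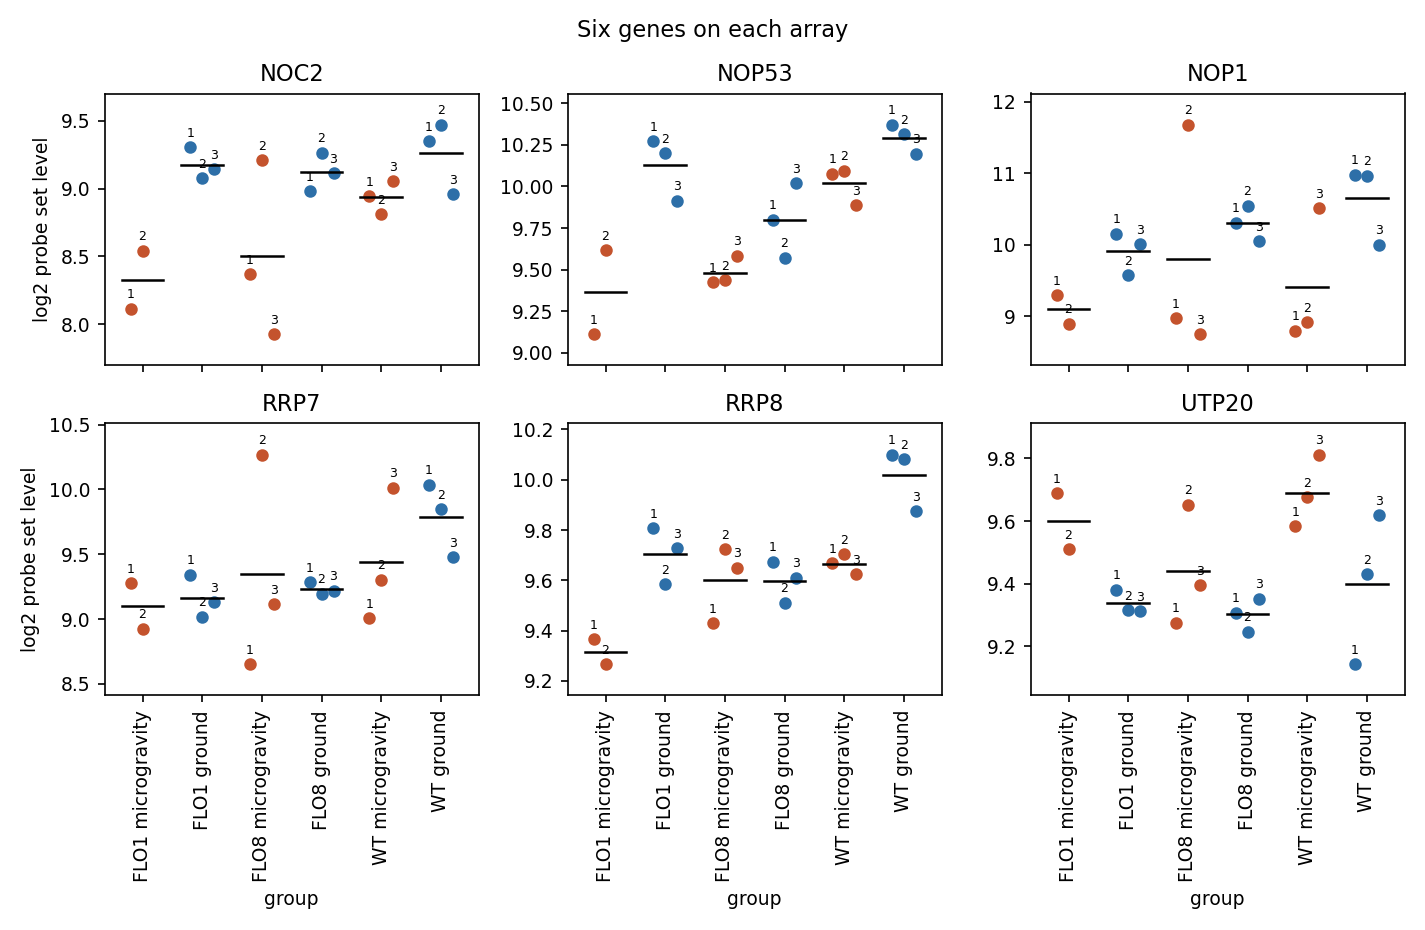
Log2 probe set level of NOC2, NOP53, NOP1, RRP7, RRP8 and UTP20 on each array (points, numbered by replicate; orange is microgravity, blue is ground) with the mean of each group (bar); the vertical axes differ and do not start at 0. NOC2 and NOP53 have lower group means in microgravity than on the ground in all 3 strains, and UTP20 has higher ones.

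The biogenesis factors as a list lay closer to 0 than the ribosomal proteins. Their median flight difference was −0.08 log2 in the FLO1 strain (38 of 58 below 0), −0.10 in the FLO8 strain (41 below 0), −0.19 in WT (46 below 0) and −0.12 on average (45 below 0), where the median of all genes was 0.01, 0.01, 0.06 and 0.03. For the 128 ribosomal proteins, which growing yeast transcribes strongly, the medians were −0.40, −0.41, −0.76 and −0.52, and 47 of 128 fell on average, with 127 of 128 below 0. For the 114 other genes of the pathway (RNA polymerase I, further assembly factors and regulators) the medians were −0.15, −0.15, −0.08 and −0.13, and none passed in any of these comparisons. The FLO8 median rested on single arrays: leaving out microgravity replicate 3 gave 0.19, with 48 of 58 above 0, and leaving out replicate 2 gave −0.58, with 56 of 58 below 0. The FLO1 median was 0.15 with the covariate for RNA quality and 0.02 without ground replicate 1, and the WT median ranged from −0.37 without ground replicate 3 to −0.07 without ground replicate 1 when 1 array was left out. The average was 0.0051 with the covariate (30 of 58 above 0), −0.26 without FLO8 microgravity replicate 2 and −0.02 without FLO8 microgravity replicate 3. With array weights the medians were −0.43 in the FLO8 strain, −0.42 in WT and −0.31 on average.

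**Figure D5:**
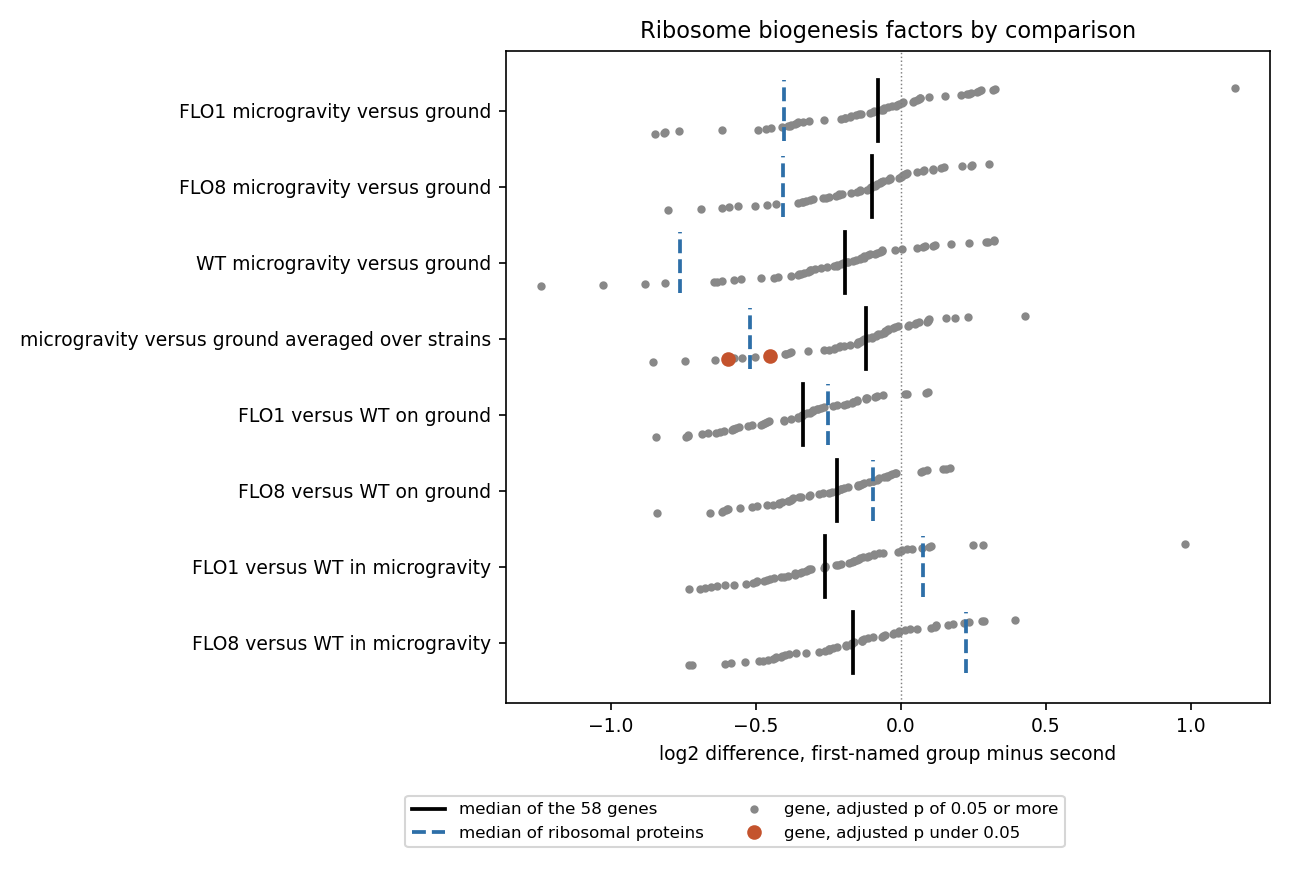
Log2 difference (first-named group minus second) of each of the 58 genes in 8 comparisons; the solid line is the median of the 58 genes, the dashed line that of 128 ribosomal proteins, and large orange points passed an adjusted p of 0.05. NOC2 and NOP53 are the 2 orange points, in the flight difference averaged over strains.

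Role groups differed in size of the flight difference, though no test was made between them. The 4 box C/D proteins had the lowest median of the average flight difference, −0.63 log2, and the 7 exosome subunits a median of 0.05. NOP58, a scaffold of the box C/D snoRNPs, read 10.23 and 10.42 in FLO1 microgravity, against 11.17, 10.61 and 11.04 on the ground, and 10.21, 10.42 and 10.53 in WT microgravity, against 11.85, 11.74 and 10.66 on the ground. The groups did not overlap in either strain, but NOP58 did not pass (WT difference −1.03, SE 0.456, adjusted p = 0.478; average −0.75, SE 0.274, adjusted p = 0.130), and in FLO8 microgravity it read 10.39, 12.02 and 9.60, against 11.29, 11.46 and 11.05 on the ground. NOP1 differed by −0.85 on average (SE 0.376, adjusted p = 0.205), NOP56, the other scaffold, by −0.50 (SE 0.272, adjusted p = 0.301), and RRP9, the U3-specific protein, by −0.08.

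In UTP-A, the complex that first meets the precursor RNA, 5 of 6 members were below 0 on average; UTP4 had the lowest p (−0.64, SE 0.255, adjusted p = 0.159). In UTP-B all 4 were below 0, led by UTP13 at −0.58 (SE 0.365, adjusted p = 0.380). UTP22 and RRP7 of UTP-C were both below 0 (median −0.16), as were RRP12, an export factor, and RRP5, an RNA-binding scaffold of both subunits (median −0.27). The 14 further small-subunit factors had a median of −0.03 with 6 above 0. Among them UTP20, a large repeat protein of the small-subunit precursor, was at 0.23 (SE 0.0872, adjusted p = 0.141): it read 9.69 and 9.51 in FLO1 microgravity, against 9.38, 9.32 and 9.31 on the ground.

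Of the 18 large-subunit factors 17 were below 0 on average, with a median of −0.17, where 45.1% of all genes were below 0. Most of these factors varied together between arrays, so their signs are not separate results. RRP8 was at −0.25 (SE 0.0754, adjusted p = 0.0782 by limma) and NOP2, an RNA methyltransferase, at −0.39 (SE 0.170, adjusted p = 0.205). NOP10 was at 0.02, and its sign changed with the processing. RRP46, a ring subunit of the exosome, was at 0.43 (SE 0.228, adjusted p = 0.294), with 2 flight arrays above all the others: RRP46 read 10.96 and 9.29 in FLO1 microgravity, against 9.14, 8.81 and 8.96 on the ground, and 9.18, 10.24 and 8.86 in FLO8 microgravity, against 9.22, 9.25 and 9.08 on the ground.

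The share of genes that lay lower in flight with no overlap of arrays was near that of the whole table in the FLO1 strain and WT, and the share that lay higher was below it in each strain. In the FLO1 strain 12 of 58, or 20.7%, lay lower without overlap (18.5% of all genes) and 3, or 5.17%, higher, RRP46, UTP20 and UTP25 (22.9% of all genes). In the FLO8 strain none lay lower (4.39% of all genes), and in WT 4, or 6.9%, did, NOP53, NOP58, NSA2 and RRP8 (5.51% of all genes). None lay higher in the FLO8 strain or in WT (6.57% and 10.5% of all genes). Among ribosomal proteins the counts that lay lower were 73, 18 and 62 of 128.

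Single arrays moved the number of calls. Without FLO8 microgravity replicate 2, 10 of 58 fell in the average over strains (7.52% of all genes called): NOC2, NOP53, NOP1, NOP2, NOP58, NSA2, RRP1, RRP8, UTP4 and UTP8. Without FLO1 microgravity replicate 2, 3 were called in the FLO1 strain (9.36% of all genes), NOP53 and RRP4 lower and RRP46 1.99 log2 higher; the remaining flight array is then taken to vary like the other groups. Earlier results of these data had shown 4 flight arrays to stand apart (WT replicate 3, FLO1 replicate 1, FLO8 replicates 2 and 3). They were picked from these same values, so calls made without them are no separate support for a fall in flight. Without all 4, 20 of 58 fell on average (18.7% of all genes called) and 6 in WT (8.52%), namely NOP1, NOP10, NSA2, RRP12, RRP7 and UTP4.

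The difference in flight response between strains was tested as an interaction, and no biogenesis factor passed for the FLO1 strain against WT or for the FLO8 strain against WT (0% and 0% of all genes called). The medians were 0.14 and 0.09 log2; the first was −0.07 when WT microgravity replicate 1 was left out and −0.0015 when WT ground replicate 1 was. The second was −0.037 and −0.041 without those arrays, and −0.38 or 0.42 when FLO8 microgravity replicate 2 or 3 was left out. The lowest p for the FLO1 strain were those of RRP46 (1.27, SE 0.568), NOP53 (−0.49) and RRP6 (−0.46), all at an adjusted p of 0.994, and for the FLO8 strain those of RRP8 (0.36), NOP19 (0.50) and NSA1 (−0.38), all at 0.998. At an unadjusted p under 0.05 there were 1 and 0 of the 58, where 3.51% and 2.95% of all genes had one. Without FLO1 microgravity replicate 2, the RRP46 difference for the FLO1 strain was 2.10. It then rested on FLO1 microgravity replicate 1 alone, where RRP46 read 10.96 log2, against 9.29 on the array left out.

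On the ground most biogenesis factors had lower group means in both engineered strains than in WT, by amounts that did not pass the test. The array means of the 58 genes overlapped. They were 9.56, 9.44 and 8.94 log2 in WT, 9.13, 8.77 and 8.98 in the FLO1 strain, and 9.06, 9.13 and 9.002 in the FLO8 strain. WT replicate 3 thus lay below every FLO8 array. In the FLO1 strain 54 of 58 were below 0 with a median of −0.34 log2, and in the FLO8 strain 52 of 58 with a median of −0.22, where the median of all genes was 0.02 in each. None of the 58 passed in either (0.0551% and 0.257% of all genes called), while 22 and 13, or 37.9% and 22.4%, had an unadjusted p under 0.05, against 13.7% and 17.5% of all genes. The other pathway genes had medians of −0.25 and −0.15 with none passing, and the ribosomal proteins −0.25 and −0.09 with 0 and 1 passing. Both comparisons use the same 3 WT arrays, so they are not independent of each other.

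RRP7 of UTP-C had the lowest p in the FLO1 strain. It read 9.34, 9.02 and 9.13 log2 in the FLO1 strain on the ground and 9.28, 9.19 and 9.22 in the FLO8 strain, against 10.04, 9.85 and 9.48 in WT. All engineered-strain arrays were below all WT arrays. The differences were −0.62 (SE 0.145, adjusted p = 0.197) and −0.55 (SE 0.145, adjusted p = 0.138).

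RRP8 read 9.81, 9.58 and 9.73 log2 in the FLO1 strain on the ground and 9.67, 9.51 and 9.61 in the FLO8 strain, against 10.10, 10.08 and 9.88 in WT, again with no overlap. Its difference was −0.42 in the FLO8 strain (SE 0.103, adjusted p = 0.124). NOP16, a factor of large-subunit precursors, had the lowest p in the FLO8 strain: it read 9.42, 9.28 and 9.27 there, against 10.05, 9.82 and 9.90 in WT (−0.60, SE 0.131, adjusted p = 0.1), and 9.85, 9.39 and 9.49 in the FLO1 strain.

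In the FLO1 strain the next lowest p were those of UTP30, a protein of early small-subunit precursors (−0.35, SE 0.0947, adjusted p = 0.235), and NSA2, which acts late in the nucleolar phase of the large subunit (−0.61, SE 0.168, adjusted p = 0.238). NSA2 read 9.06, 8.57 and 8.88 in the FLO1 strain, against 9.70, 9.49 and 9.15 in WT. In the other role groups the lowest p belonged to NOP10 (−0.38, adjusted p = 0.253), NOP1 (−0.74, adjusted p = 0.302), UTP18 of UTP-B (−0.57, adjusted p = 0.304), RRP12 (−0.56, adjusted p = 0.325), RRP45, a ring subunit of the exosome (−0.28, adjusted p = 0.363), and UTP4 (−0.53, adjusted p = 0.432).

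By role the ground medians in the FLO1 strain ran from −0.53 for UTP-B and −0.49 for the box C/D proteins to −0.22 for the exosome and −0.18 for UTP-A. All 14 further small-subunit factors were below 0 in each engineered strain. On the ground 9 of 58 genes, or 15.5%, lay below WT without overlap in the FLO1 strain (7.73% of all genes) and 12, or 20.7%, in the FLO8 strain (8.18% of all genes). Both sets held NOP10, RRP7, RRP8, RRP17, UTP7 and UTP30, and both use the same WT arrays.

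The number of calls in these tests depended on WT ground replicate 3. That array was below both other WT ground arrays for 52 of 58 genes. Leaving it out raises the WT means of those genes, so the added calls are no separate support for a strain difference. Without it, 33 of 58 fell in the FLO1 strain (10.6% of all genes called) and 15 in the FLO8 strain (5.41% of all genes called), and the medians were −0.47 and −0.45. The 33 included all 4 box C/D proteins, 10 of 18 large-subunit factors, 8 of 14 further small-subunit factors and 1 of 7 exosome subunits, with UTP6 at −1.28, RRP36 at −1.22 and RRP1, a large-subunit factor, at −1.11. Without WT ground replicate 1 or 2 none passed, and the FLO8 medians were −0.16 and −0.13.

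In microgravity no biogenesis factor passed for the FLO1 strain or the FLO8 strain against WT (0% and 0% of all genes called). The medians were −0.26 log2 with 48 of 58 below 0 and −0.17 with 44 of 58 below 0. In each comparison 2 of 58, or 3.45%, had an unadjusted p under 0.05 (1.96% and 2.81% of all genes), and both use the same WT flight arrays. The FLO1 median was −0.04 without WT microgravity replicate 3 and 0.04 with the covariate for RNA quality, and the FLO8 median 0.08 without that WT replicate and 0.18 without FLO8 microgravity replicate 3. In the FLO1 strain 11 of 58, or 19.0%, lay below WT without overlap (7.6% of all genes), and in the FLO8 strain 2, or 3.45%, did, NOP53 and RRP15 (5.14% of all genes).

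NOP53 and RRP15, both factors of large-subunit precursors, had low p values in both. NOP53 differed by −0.66 in the FLO1 strain and −0.54 in the FLO8 strain. RRP15 read 10.80 and 11.12 in FLO1 microgravity and 11.00, 11.48 and 10.61 in FLO8 microgravity, against 11.50, 11.68 and 11.72 in WT microgravity, with differences of −0.67 and −0.61 (adjusted p = 1.00 and 0.999). All engineered-strain flight arrays were below all WT flight arrays for RRP15. The remaining member was RRP46 in the FLO1 strain, with a higher mean than WT. RRP46 read 10.96 and 9.29 in FLO1 microgravity, against 8.87, 9.30 and 9.27 in WT microgravity. In the FLO8 strain it was NOP16, which read 9.19, 9.59 and 9.07 in microgravity, against 9.85, 9.90 and 9.52 in WT microgravity.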

How the data were processed

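Gene expression was measured in 3 yeast strains in microgravity and on the ground, on 17 arrays. The values as deposited are on a log2 scale, 1 per probe set and array; the submitters' processing notes name RMA, affy 1.26.1 and MAS5, and the role of MAS5 is not given in the sources used here. Values ran from 2.58 to 15.08, and 0 arrays were identical. Neither background correction nor normalization was repeated. Precision depends on how many arrays each group has and on the spread, which a fit pools over its groups for each gene. The median SE of the flight difference over the biogenesis factors was therefore 0.357 log2 in both WT and the FLO8 strain. The SD of their mean level was 0.85 in FLO8 microgravity, 0.36 in WT microgravity and 0.063 in the FLO8 strain on the ground. Flight tests within WT and the FLO1 strain thus also carry the spread of the FLO8 flight arrays.

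Of 10928 probe sets 7244 had 1 gene symbol (5498 of S. cerevisiae), 1 several and 3683 none, and 12 symbols were updated through RefSeq. For 47 genes with several, the one with the highest mean was kept, leaving 5449 genes. Background was the 95th percentile of S. pombe probe sets. Genomic positions are not given, because no build is named.

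Groups came from sample titles. A mean per group was fitted with limma 3.58.1 (lmFit, eBayes) in R 4.3.3, two-sided, with Benjamini-Hochberg adjustment over all 5449 genes and calls at an adjusted p under 0.05. Flight differences, their average and interactions used all 17 arrays; strain comparisons used the arrays of their condition, since spread was known to differ. The fits were tested on simulated data in which genes were independent and spread was equal in all groups. That test does not cover the wider spread in flight or genes that vary together. Errors of levels are SD, of differences SE.

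The members, role groups, other lists and 4 arrays that stand apart were chosen with earlier results of these data known. Named genes were up to 8 called members per direction, otherwise the 3 with the lowest p, the lowest p of each role group in the FLO1 ground comparison and the average flight difference, and the 3 largest and smallest spreads; others illustrate a role group or an overlap count and were chosen after their values were seen. Alternatives were median centring, array weights, other sets of arrays in the fit, the replicate number as a block, an RNA quality covariate, a background filter, probe set means and leaving out arrays.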

Additional observations from a re-analysis of the deposited data

How the results depend on the processing

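Array weights gave 12 members called in WT (11% of all genes called), 16 in the FLO8 strain (13.7%) and 15 in the average (14.2%) for microgravity against ground, and 19 (8.97%) and 5 (2.95%) for the FLO1 and the FLO8 strain against WT on the ground. Without the 4 flight arrays that stand apart the counts were 6 in WT and 20 in the average, and with the covariate for RNA quality the average had 0. Leaving out 1 array at a time gave 0 to 3 calls for FLO1 flight against ground, 0 to 10 for the average, 0 to 1 for the FLO1 interaction, and, on the ground, 0 to 33 for the FLO1 strain and 0 to 15 for the FLO8 strain against WT. The cause of these changes was not tested. NOP10, at 0.02 in the average flight difference, was at −0.020 after median centring, −0.28 with array weights, −0.013 with the covariate and −0.49 without the 4 arrays, and between −0.17 and 0.22 when 1 array was left out. It was the only 1 of 43 named results to change sign. Arrays of different groups with the same replicate number were not alike throughout (40 pairs, correlations −0.51 to 0.64, 17 above 0.1). Pairs with different numbers were not compared. With the replicate number as a block, NOC2 and NOP53 kept adjusted p of 0.0481 and 0.0475 by limma and no count of calls changed. A comparison that leaves 1 array in a group takes it to vary like the others. The fit without the 4 flight arrays does so for the flight groups of the FLO1 and the FLO8 strain, so its counts can be too high.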
